A study of Mus musculus with 20 samples.

Results

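Naive CD4 T cells with high surface CD5 (CD5hi) were compared with naive CD4 T cells with low surface CD5 (CD5lo), both lysed directly after sorting. The comparison uses 8 of the 20 libraries of the series, 4 per group, chosen by titles that name the fresh state, the CD5 gate and a replicate number from 1 to 4. The cells were taken from the spleens and lymph nodes of 8- to 12-week-old C57BL/6 mice with a Foxp3-GFP reporter, which marks regulatory T cells (Treg). Both groups were sorted as live single TCRb+ CD4+ CD8- cells without reporter signal and with low CD44, and cells stained for CD69, B220, CD11c, CD11b, F4/80, Ly6G or NK1.1 were gated out. Of these naive cells, the 15% with the least surface CD5 made the CD5lo group and the 15% with the most made the CD5hi group. No treatment was given, and the gate is the difference the labels give between the groups. In the CD5hi samples the cell type label begins with the word for the other gate, while their titles and the gate itself name CD5hi. The labels call the libraries biological replicates without tying each to its own mice, so p-values measure spread among these libraries only. In a fit that pairs replicate numbers, this is the spread of the differences within pairs, estimated for each gene partly from other genes. They also describe pools of both sexes, but all 8 libraries held 370 to 408 CPM (read counts scaled to the library total) in genes of the Y chromosome, and Xist did not exceed 0.729 CPM.

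CD5 is a surface protein of the scavenger receptor family that dampens signalling from the T cell receptor (TCR). Its level is set in the thymus by the strength of TCR contact with self-peptide on MHC molecules and is maintained by such contacts in the periphery, so it serves as a gauge of how strongly a naive cell recognises self. TCR signals pass from the kinases Lck and Zap70 through adapters to calcium, the Ras-ERK pathway and NF-kB, and induce immediate early transcription factors together with inhibitors of the same pathway.

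Levels are given as CPM after TMM scaling of the library totals, and group values as mean ± SD (n = 4). Each change is a log2 fold change of CD5hi against CD5lo ± SE from an edgeR quasi-likelihood fit that pairs libraries of the same replicate number. A gene was called at a Benjamini-Hochberg adjusted p under 0.05, and only called genes are said to have risen or fallen in CD5hi cells. Libraries held 43770193 to 59065224 counts. The call of each gene so named was kept in all 13 alternative fits that tested it, except where stated. Likewise, list counts given as in every alternative cover, for each gene, only the fits that tested it.

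The CD5 gate separated the transcriptomes broadly but mostly by small steps. Of 12527 genes tested, 4103 were called (32.8%), and CD5hi cells were higher in 2136 (17.1%) and lower in 1967 (15.7%). These shares are the background for the list counts below. By level in the higher group, calls were made in 12.7% under 1 CPM, 33.1% at 10 to 100 and 47.9% over 100 CPM. Lists were not matched for level. Of the called genes, 3313 differed by less than 1.5-fold, and the median size of a called log2 change was 0.21. Changes of at least 2-fold were found in 401 genes (3.2% of those tested), with 298 higher (2.38%) and 103 lower (0.822%). Large changes were thus mostly rises, and 95 genes rose but 20 fell by at least 4-fold. Large changes were concentrated in genes of low level. Of 2225 genes with at least 100 CPM in both groups, 1006 were called and 2 changed at least 2-fold, Cd5 and Cd6, whereas 139 of the 401 genes stayed under 1 CPM in both groups. Along the first principal component, with 52.2% of the variance, CD5lo and CD5hi libraries lay apart. The second took 14.2% and arranged the 4 replicate numbers alike in both groups.

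**Figure D1:**
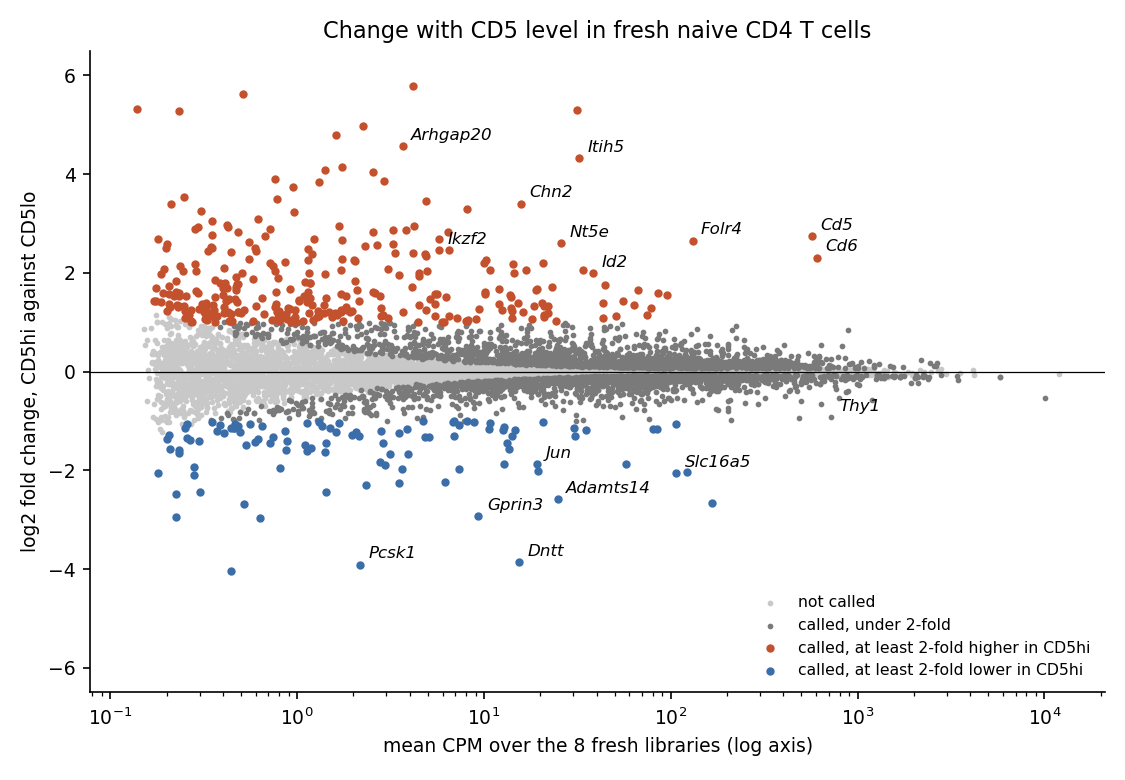
Each point is a gene tested, with the mean CPM over the 8 fresh libraries on a log axis and the log2 fold change of CD5hi against CD5lo on the vertical axis. Colour marks called genes of at least 2-fold, 298 higher and 103 lower, and the 2 such genes with at least 100 CPM in both groups are Cd5 and Cd6. Kcnf1, with no count in CD5lo cells, is left out because its fitted change depends on the prior count of the fit.

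The sort was visible in its own markers. Cd5 was at 145, 158, 136 and 154 CPM in CD5lo replicates 1 to 4 and at 989, 999.7, 911 and 1065 CPM in CD5hi replicates 1 to 4, the order used throughout. The groups lay far apart, with a log2 change of 2.74 ± 0.03 (edgeR adjusted p = 8.2e-29), and the gate on the protein makes this a check and not a finding. Cd4 fell from 1115 ± 24.8 to 929.8 ± 34 CPM (-0.26 ± 0.03), Cd44 fell from 32 ± 1.32 to 21.2 ± 1.37 CPM (-0.60 ± 0.05), and the TCR subunit gene Cd3e was at 365 and 354 CPM and did not pass. Cd69, the early activation marker excluded by the sort, was at 55.5 and 56.1 CPM and did not pass either. Foxp3, the defining factor of Treg, was at 21, 22.5, 23.5 and 23 CPM in CD5lo and 23.8, 22.6, 25.6 and 25.2 CPM in CD5hi libraries, which overlap (0.11 ± 0.05, edgeR adjusted p = 0.076), although all cells were sorted outside the reporter gate.

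Markers of other cell types did not move in 1 direction. Of 13 tested B cell and class II genes, 0 were called higher and 1 lower, and their summed level was 18.5 to 23.8 CPM in CD5lo and 18.4 to 21.1 CPM in CD5hi libraries. Myeloid markers summed to 194 to 204 and 205 to 221 CPM, with 3 of 13 called higher and 1 lower (1 higher without replicate 2, and 2 lower without replicate 3 or 4), while the neutrophil gene S100a8 averaged 0.0637 and 0.075 CPM. Of the dendritic cell list, only Ccr9, Bst2 and Xcr1 were abundant enough to test, and Ccr9 and Bst2 were called lower, Bst2 neither without pairing nor in the paired fit of all 20 libraries. Erythroid and platelet markers were called lower in 6 of 9 tested members, but in 1 with no replicate block and in 0 in both fits of all 20 libraries, with sums of 60.8 to 121 and 40.8 to 84.9 CPM that overlap between the groups. Hba-a1, an alpha-globin gene whose reads are shared with its near-identical copy Hba-a2, was at 37.6, 16.7, 19 and 16.4 CPM in CD5lo and 25.5, 9.93, 17 and 12.4 CPM in CD5hi libraries, highest in replicate 1 of both groups. That call was lost in the fits without pairing and in the fit of all 20 libraries with pairing. NK, CD8 and gamma-delta markers had 7 falls and 3 rises called among 13 tested members (4 and 2 in every alternative) and summed to 95.3 to 102 and 46.6 to 52.4 CPM. The NK receptor gene Ncr1 was at 0 in all 4 CD5hi libraries and averaged 0.00489 CPM in CD5lo libraries. The part of such cells in the results was not tested. In sorted bulk samples, fewer cells of a kind and less RNA per cell cannot be told apart.

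The largest rises joined a receptor related to CD5 and several genes with no fixed place in TCR signalling. Cd6, the neighbour and homologue of CD5 in the scavenger receptor family, was at 201, 218, 182 and 211 CPM in CD5lo and 1022, 1032, 924 and 1042 CPM in CD5hi libraries (2.31 ± 0.03, edgeR adjusted p = 9.3e-28). Among genes of at least 100 CPM in both groups, the next largest change was a fall of Rhoh. Itih5, a secreted inter-alpha-trypsin inhibitor heavy chain that binds hyaluronan, was at 2.28, 4.47, 2.8 and 2.74 CPM in CD5lo and 54, 69.4, 65.3 and 58.4 CPM in CD5hi libraries (4.33 ± 0.07). The lowest CD5hi library was thus far above the highest CD5lo library. Folr4, also named Izumo1r and known from Treg and anergic CD4 cells, was at 37.5, 38.6, 32.1 and 35.4 and 223, 228, 225 and 227 CPM (2.65 ± 0.03), with CD5hi libraries within a narrow range. Chn2, which encodes the Rac GTPase-activating protein beta-chimaerin, rose from 2.74 ± 0.295 to 28.9 ± 1.47 CPM (3.40 ± 0.07), Phactr2, a regulator of protein phosphatase 1 and actin, from 1.49 to 14.7 CPM (3.30 ± 0.09), and Lysmd2 from 2.0 to 11 CPM (2.46 ± 0.10). Jup, which encodes the junction protein plakoglobin, rose by 2.19 ± 0.08, Hip1r, an endocytic adaptor, by 2.06 ± 0.06, and Wfikkn2, a secreted inhibitor of growth and differentiation factors, by 2.05 ± 0.07. Sytl2, a Rab27 effector of vesicle transport, rose from 20.1 to 68.3 CPM (1.76 ± 0.04), and Ptgfrn from 10.9 to 35.6 CPM (1.71 ± 0.05).

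Some genes were nearly confined to 1 of the groups. The rule was under 0.5 CPM in all 4 libraries of one group and over 2 CPM in all 4 of the other. With predicted genes and antigen receptor segments left out, 6 genes were near absent in CD5lo cells and 1 in CD5hi cells. Kcnf1, a silent subunit of voltage-gated potassium channels, had no count in any CD5lo library and was at 3.88, 3.78, 3.86 and 4.74 CPM in CD5hi libraries. The limit that 3 counts over the 4 CD5lo libraries would set is 0.0139 CPM, and it would be larger if most fragments were counted once per mate. Arhgap20, which encodes a GTPase-activating protein, was at 0.356, 0.154, 0.217 and 0.47 CPM in CD5lo and 7.82, 7.17, 5.66 and 7.53 CPM in CD5hi libraries, and Chl1, a neural cell adhesion molecule, was at 0.231, 0.205, 0.0394 and 0.0587 and 3.88, 5.05, 4.09 and 4.35 CPM. Both were more than 10 times higher in every CD5hi library than in any CD5lo library. Mtap2, a microtubule-associated protein gene, rose from 0.112 to 3.1 CPM, Trpm1, a cation channel gene, from 0.289 to 4.79 CPM, and Nebl, an actin-binding protein gene, from 0.154 to 2.65 CPM. The exception in the other direction was Pcsk1, a prohormone convertase gene, at 3.79, 3.18, 4.94 and 4.31 CPM in CD5lo and 0.218, 0.0911, 0.446 and 0.302 CPM in CD5hi libraries.

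**Figure D2:**
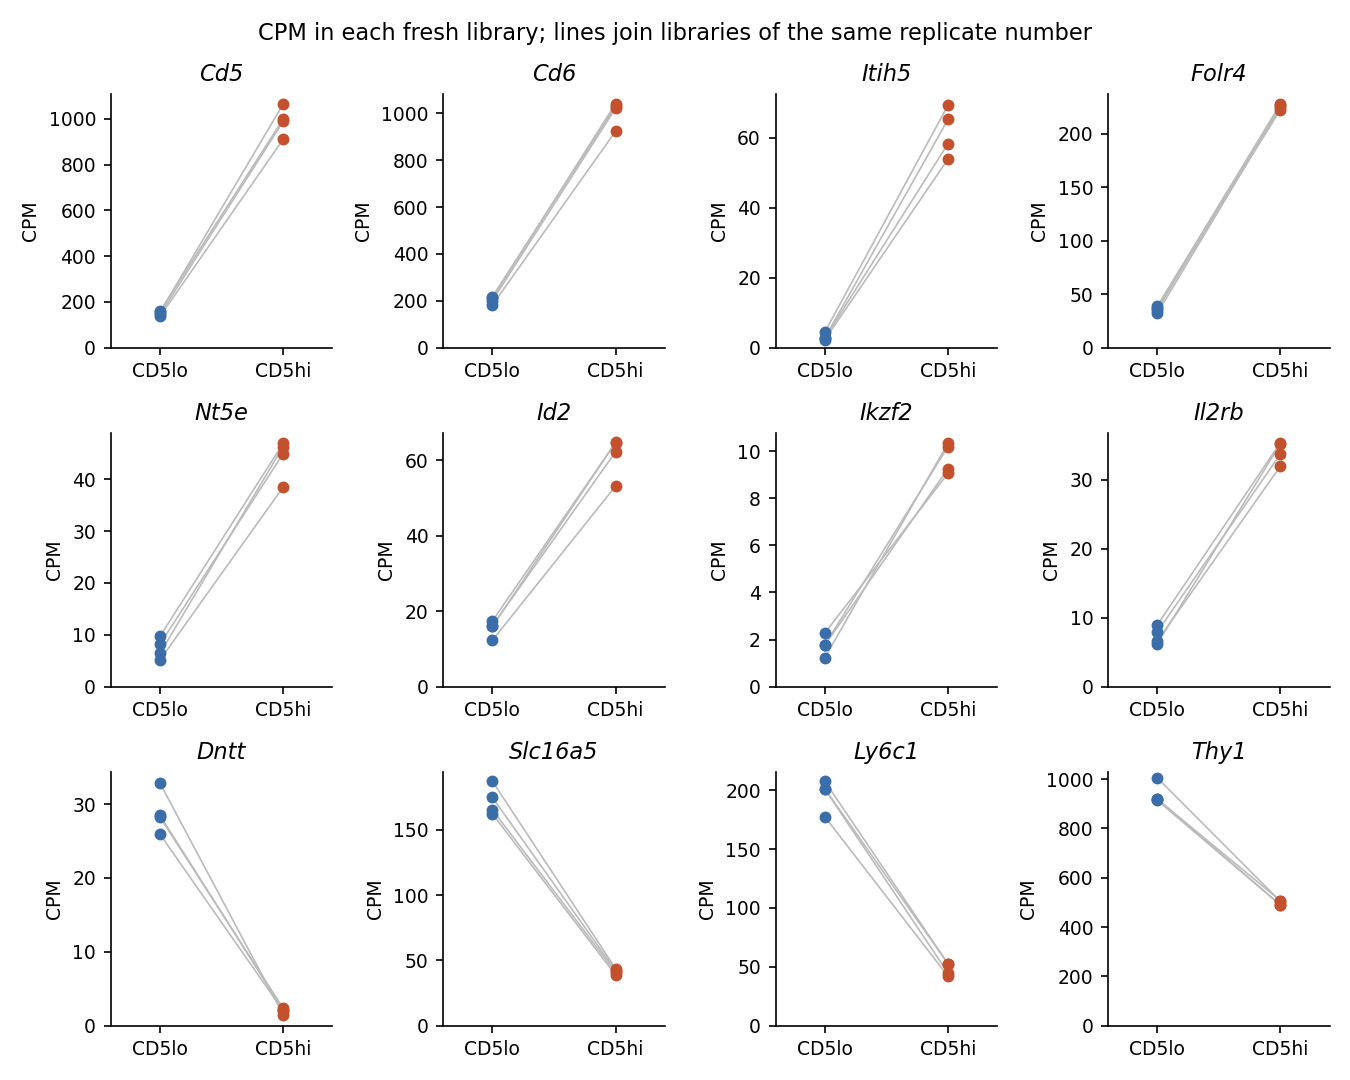
Each panel plots CPM from 0 in the 4 CD5lo and 4 CD5hi libraries, with a line between libraries of the same replicate number. In all 12 genes the groups do not overlap. Cd5, Cd6, Itih5, Folr4, Nt5e, Id2, Ikzf2 and Il2rb were higher and Dntt, Slc16a5, Ly6c1 and Thy1 lower in CD5hi cells, and the 4 lines of a panel run alike.

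Falls were led by Dntt, the terminal transferase that adds bases to rearranging receptor genes in thymocytes. It was at 28.5, 25.9, 32.8 and 28.2 CPM in CD5lo and 2.11, 2.03, 1.5 and 2.35 CPM in CD5hi libraries (-3.85 ± 0.09, edgeR adjusted p = 1.9e-21). Every CD5lo library was more than 10 times above every CD5hi library. Gprin3, a G-protein-regulated neurite protein gene, was at 16.9, 16.8, 16.3 and 16.1 and 2.03, 1.94, 2.53 and 2.1 CPM (-2.93 ± 0.09), with little spread within either group. Slc16a5, a member of the monocarboxylate transporter family, was at 187, 162, 165 and 175 CPM in CD5lo and 43.7, 38.8, 40.9 and 42.2 CPM in CD5hi libraries (-2.06 ± 0.03). Adamts14, a procollagen peptidase, fell from 42.4 ± 4.25 to 7.1 ± 0.898 CPM (-2.58 ± 0.05), Car2, carbonic anhydrase 2, by 1.97 on the log2 scale, and Pdlim4, an actin-associated LIM protein gene, from 90.3 to 24.7 CPM (-1.87 ± 0.04). Amigo2, an adhesion molecule gene, fell from 117 to 52.1 CPM (-1.16 ± 0.03), Tmie from 110.1 to 49.4 CPM (-1.16 ± 0.03), and Lass6, a ceramide synthase gene, from 49 to 21.5 CPM (-1.19 ± 0.04). Among genes of at least 100 CPM in both groups, falls outnumbered rises in the 12 largest changes. Rhoh, a GTPase-deficient small G protein needed for TCR signalling, was at 295, 267, 274 and 281 CPM in CD5lo and 138, 143, 138 and 150.3 CPM in CD5hi libraries (-0.97 ± 0.03). Thy1, the CD90 surface glycoprotein of T cells, was at 1005, 914, 920.2 and 919 and 504, 489, 489 and 507 CPM (-0.92 ± 0.03). Neither gene overlapped between the groups. In the same direction, Pdk1, a brake on pyruvate entry into mitochondria, fell by 0.94 on the log2 scale, Lyst, a lysosomal trafficking regulator, by 0.81, and Gramd3 by 0.77. Rises at this level were those of Igf2r, a receptor of mannose 6-phosphate (0.91 ± 0.03), Igfbp4, a binding protein of insulin-like growth factors (0.84 ± 0.03), and Kif1b, a transport kinesin (0.84 ± 0.03).

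The TCR complex and its proximal signalling proteins were altered in both directions. Among 15 genes of the complex and its co-receptors, 6 were called higher and 3 lower (4 and 3 in every alternative), with a median change of 0.05 against -0.005 over all genes tested. Cd247, which encodes the CD3 zeta chain, was at 528, 510.1, 509 and 501 CPM in CD5lo and 409, 417, 418 and 414 CPM in CD5hi libraries (-0.30 ± 0.03). The costimulator gene Cd28 (0.26 ± 0.03) and the adhesion receptor gene Cd2 (0.27 ± 0.03) rose. Of 29 kinases and phosphatases, 11 were called higher and 8 lower (7 and 4 in every alternative, and 5 lower without replicate 2). The kinase gene Tec fell from 27.7 ± 1.57 to 13.6 ± 0.799 CPM (-1.02 ± 0.05). Fyn, an Src family kinase, rose (0.21 ± 0.03), while Zap70 was called at 0.09 ± 0.03, a call lost in several alternatives (edgeR adjusted p from 0.0011 to 0.21). Ubash3b, the phosphatase Sts-1 that acts on Zap70, was at 25, 23, 23.8 and 24.2 CPM in CD5lo and 61.6, 64.4, 59.7 and 65 CPM in CD5hi libraries (1.38 ± 0.04). Its relative Ubash3a was called at 0.11 ± 0.03, and that call was lost without pairing and in the paired fit of all 20 libraries. Ptpn6, which encodes the inhibitory phosphatase SHP-1, rose from 259 ± 26.5 to 366 ± 33.5 CPM (0.50 ± 0.03), whereas Ptpn22 (0.02 ± 0.03) and Csk (0.06 ± 0.03) did not pass.

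Adapters and regulators of Ras were called higher in 14 and lower in 9 of 37 members (7 and 4 in every alternative). Grap2, the adapter Gads that joins SLP-76 to LAT, was at 605, 592, 577 and 622 CPM in CD5lo and 394, 403, 384 and 403 CPM in CD5hi libraries (-0.60 ± 0.03). Themis, an adapter known from thymic selection (-0.33 ± 0.03), and Sit1, an inhibitory transmembrane adapter (-0.49 ± 0.03), fell too. Inhibitors among the risers were Cblb, a ubiquitin ligase that raises the threshold of activation (0.43 ± 0.03), Dgkz, a diacylglycerol kinase (0.31 ± 0.03), and Rasal1, a Ras GTPase-activating protein gene, from 27.8 ± 2.09 to 59 ± 4.87 CPM (1.08 ± 0.04). Calcium and NFAT genes were called higher in 11 and lower in 7 of 32, with no change of 2-fold, while in every alternative 2 were higher and 4 lower. The calcium release channel genes moved in opposite directions, Itpr1 by 0.27 ± 0.03 and Itpr2 by -0.23 ± 0.03. NF-kB pathway genes were called higher in 10 and lower in 4 of 30 (4 and 2 in every alternative). The paracaspase gene Malt1 rose from 159 ± 6.54 to 218 ± 2.54 CPM (0.46 ± 0.03), and Bcl3 (0.58 ± 0.04) rose as well, while the inhibitor gene Nfkbia (-0.03 ± 0.03) did not pass. Traf1, a TNF receptor adapter gene, fell (-0.54 ± 0.03).

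NR4A receptors and EGR factors, which TCR signals induce, rose together with their Nab corepressors. All 8 tested members of this list were called higher, against 17.1% of all genes tested, and 7 of them in every alternative that tested them. Their median change was 0.73, and the list was chosen with earlier results of these data known. The orphan nuclear receptor gene Nr4a1 was at 30.2, 33.1, 35.8 and 29.2 CPM in CD5lo and 63.5, 70.4, 80.5 and 66.3 CPM in CD5hi libraries (1.13 ± 0.03, edgeR adjusted p = 4.6e-19), and the groups did not overlap. Egr1, a zinc finger factor of the same immediate early response, was at 68.6, 61.6, 61.2 and 64.7 and 108, 108, 117 and 104 CPM (0.77 ± 0.04). Nab2, a corepressor that binds EGR factors, rose from 65.5 ± 6.42 to 104 ± 17.8 CPM (0.66 ± 0.03). Nr4a2 stayed under 1 CPM in both groups and was not tested in the fit asking at least 1 CPM in 4 libraries. The 250 bases before the start of Nr4a1 are shown because its neighbours in this list, the EGR factors, rose with it. They lie at chr15:101266596-101266845 on the plus strand of GRCm38.p6, from RefSeq, and the capitals mark a match to the EGR motif GCGNGGGCG, here on the opposite strand.
Nr4a1: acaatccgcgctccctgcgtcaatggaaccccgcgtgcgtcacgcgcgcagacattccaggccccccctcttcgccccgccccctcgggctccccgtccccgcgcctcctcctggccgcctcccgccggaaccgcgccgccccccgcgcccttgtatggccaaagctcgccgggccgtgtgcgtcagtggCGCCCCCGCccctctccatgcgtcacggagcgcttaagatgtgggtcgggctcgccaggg
The motif was common. It lay on either strand in 8.36% of 11110 promoter windows of this length from tested genes, in 10.1% of the 297 windows from genes at least 2-fold higher, and in 8.82% of the 102 windows from genes at least 2-fold lower.

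The AP-1 family did not share this direction. Jun, a subunit of AP-1, was at 29.7, 18.9, 31.8 and 40.5 CPM in CD5lo and 7.95, 3.87, 10.7 and 10.7 CPM in CD5hi libraries (-1.88 ± 0.07, edgeR adjusted p = 3.2e-17). Although libraries varied within each group, all CD5lo values lay above all CD5hi values. Fos (0.13 ± 0.09), Fosb (0.09 ± 0.20), Myc (0.05 ± 0.03) and Irf4 (-0.10 ± 0.08) did not pass. Btg2, an antiproliferative immediate early gene, fell (-0.21 ± 0.03), and Klf10, a zinc finger factor induced by TGF-beta, rose (0.51 ± 0.07). Over the list of AP-1 and other immediate early genes, 13 were called higher and 6 lower of 34 (6 and 3 in every alternative). The AP-1 motif TGANTCA, on either strand, lay in 4.2% of all windows, 6.06% of those from genes at least 2-fold higher and 3.92% of those from genes at least 2-fold lower. Feedback phosphatases of the ERK pathway and Sprouty genes were called higher in 5 and lower in 3 of 21 (4 and 1 in every alternative), close to the share over all genes. Those that rose by most were Dusp4, from 0.315 ± 0.251 to 1.4 ± 0.435 CPM, and Spry1, from 0.461 ± 0.0198 to 1.85 ± 0.184 CPM, and Dusp6, an ERK-specific phosphatase gene of higher level, rose from 25.2 ± 2.08 to 35.1 ± 4.38 CPM (0.47 ± 0.04).

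**Figure D3:**
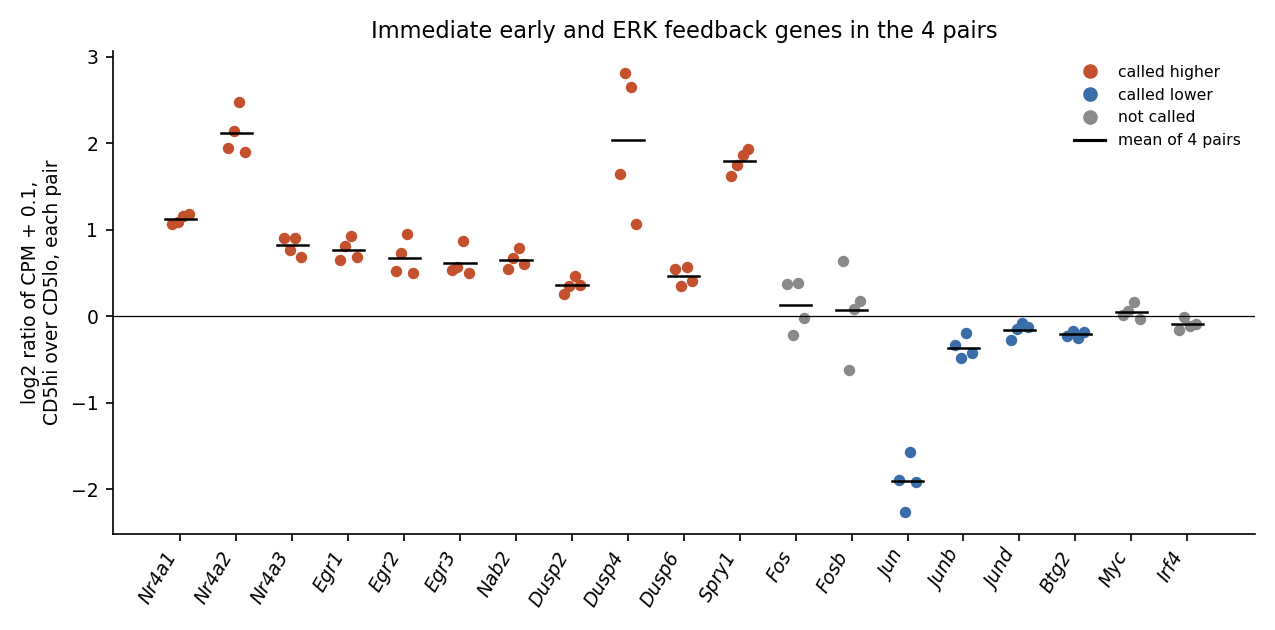
Points give the log2 ratio of CD5hi over CD5lo CPM, with 0.1 CPM added to both, in each of the 4 pairs, and bars give the mean of the pairs. The NR4A, EGR and Nab2 points lie above 0 in every pair and the Jun points lie below 0 in every pair, while Fos, Fosb and Myc points fall on both sides.

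Inhibitory and costimulatory receptors were widely altered. Of 42 members 20 were called higher and 10 lower (16 and 5 in every alternative), which is 71.4% called against 32.8% of all genes tested. Pdcd1, the inhibitory receptor PD-1, was at 2.28, 1.76, 1.26 and 1.17 CPM in CD5lo and 8.97, 9.11, 7.76 and 6.94 CPM in CD5hi libraries (2.35 ± 0.11). Tnfrsf9, the costimulator 4-1BB, was at 1.69, 1.49, 1.36 and 1.8 and 10.8, 11.8, 9.94 and 12.4 CPM (2.82 ± 0.10), and both genes were low in CD5lo cells. Tnfsf11, the cytokine RANKL, rose from 1.55 ± 0.296 to 9.98 ± 1.63 CPM (2.68 ± 0.11), Cd200, an inhibitory ligand gene, from 5.21 ± 1.35 to 23.3 ± 1.95 CPM (2.17 ± 0.08), and Lag3, an MHC class II receptor gene, from 0.613 to 1.64 CPM (1.41 ± 0.22). At higher levels, Btla (0.38 ± 0.03), Icos (0.69 ± 0.04) and Tnfrsf18, which encodes GITR (0.56 ± 0.04), rose, and Tnfrsf4, which encodes OX40, rose by 0.73 ± 0.07. The direction was not uniform, since Cd226, an activating receptor gene (-0.51 ± 0.03), and Cd40lg, which encodes the ligand that T cells offer to B cells (-0.19 ± 0.03), fell.

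Genes of anergy and of the adenosine pathway were mostly higher, in 15 of 24 members with 3 lower (12 and 1 in every alternative). Over all genes tested 17.1% were higher, and the median of the list was 0.39. Nt5e, the ectonucleotidase CD73 that makes adenosine, was at 5.14, 9.69, 8.17 and 6.4 CPM in CD5lo and 38.5, 46.9, 44.9 and 46.3 CPM in CD5hi libraries (2.60 ± 0.07). Adora2a, an adenosine receptor gene, rose from 11.9 ± 0.855 to 29.8 ± 1.77 CPM (1.32 ± 0.05), and P2rx7, the channel gated by extracellular ATP, from 13 ± 2.5 to 54.3 ± 7.69 CPM (2.06 ± 0.05). Enzyme, receptor and ATP channel thus rose in the same libraries, while Entpd1, the CD39 enzyme that acts before CD73, was at 0.342 and 0.591 CPM with overlapping groups and a call lost in several alternatives (edgeR adjusted p from 0.034 to 0.27). Ndrg1, a gene linked to anergy, rose from 9.27 ± 0.953 to 29.4 ± 1.84 CPM (1.66 ± 0.06).

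Genes known from Treg were higher in 19 of 24 members and lower in 1 (18 and 1 in every alternative that tested them). With at least 1 CPM asked in 4 libraries, which left some members untested, 17 were higher and 1 lower. The share higher over all genes tested was 17.1%. The list had a median of 1.03 and shares Folr4, Nt5e, Tnfrsf9 and others with those above. Ikzf2, the Ikaros family factor Helios, was at 1.76, 2.28, 1.77 and 1.23 CPM in CD5lo and 9.25, 9.06, 10.2 and 10.3 CPM in CD5hi libraries (2.46 ± 0.12). Its relative Ikzf4, which encodes Eos, rose from 5.81 ± 0.812 to 18.4 ± 1.14 CPM (1.66 ± 0.07), and Gpr83 from 9.2 ± 0.814 to 28.8 ± 2.65 CPM (1.65 ± 0.05). The interleukin 2 receptor chains separated: Il2rb, the beta chain, was at 7.94, 8.95, 6.22 and 6.61 and 33.8, 35.4, 35.3 and 32 CPM (2.20 ± 0.07), whereas Il2ra, the alpha chain that Treg carry in quantity, was at 3.04, 3.53, 2.42 and 2.78 and 1.92, 1.62, 1.23 and 1.87 CPM (-0.83 ± 0.14). Neither chain overlapped between the groups, and Il2ra was the member of the list called lower. In the 4 libraries of Treg, sorted fresh by the Foxp3-GFP signal and scaled together with all 20, Il2rb averaged 1132 and Tnfrsf9 144.1 CPM, far above both fresh groups, whereas Jup averaged 1.52 CPM, below both.

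Genes of thymocytes and recent emigrants were split, with 5 called higher and 8 lower of 21 (4 and 6 in every alternative). Cd8b1, the CD8 beta chain, was at 34.2, 28.3, 30.2 and 32.4 CPM in CD5lo and 7.51, 7.72, 7.26 and 8.62 CPM in CD5hi libraries (-2.01 ± 0.06), while Cd8a averaged under 1 CPM in both groups. Ccr9, a gut homing receptor also carried by thymocytes, fell from 14.4 ± 0.859 to 6.99 ± 0.897 CPM (-1.05 ± 0.08). Sox4, a high mobility group factor of early T cells, rose from 13.3 ± 0.823 to 28.7 ± 2.18 CPM (1.11 ± 0.05), and Cd38 from 0.561 to 1.72 CPM (1.62 ± 0.22), so Dntt and Cd8b1 did not stand for the whole list. Myb, a factor of progenitors and thymocytes, rose from 18 ± 1.57 to 35.9 ± 2.73 CPM (0.99 ± 0.05).

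Factors that keep naive T cells quiescent and place them in lymphoid tissue changed mostly by small steps. Of 40 genes of naive identity and homing, 17 were called higher and 12 lower, 9 and 5 in every alternative, with a median of 0.03. Lef1, a Wnt pathway factor (0.22 ± 0.03), and the egress receptor gene S1pr1 (0.26 ± 0.03) rose, and Ccr7, which guides cells into lymph nodes, fell (-0.19 ± 0.03). Bach2 (-0.02 ± 0.03), Satb1 (0.06 ± 0.03), Foxp1 (-0.02 ± 0.03) and Zbtb7b (0.01 ± 0.03), which encode factors of T cell identity, did not pass. Dapl1 rose most, from 35.8 ± 4.22 to 91.3 ± 9.21 CPM (1.35 ± 0.03).

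The list of Id and E proteins had 3 members called higher and 3 lower of 10 (2 and 1 in every alternative), and the rises included Id2 and Id3, whose proteins block E protein factors by pairing with them. Id2 was at 17.4, 16.1, 12.3 and 15.9 CPM in CD5lo and 64.6, 62.2, 53.1 and 64.7 CPM in CD5hi libraries (1.99 ± 0.04), and Id3 at 37.3, 26.3, 27.3 and 31.5 and 60.5, 50.8, 57.1 and 59.7 CPM (0.91 ± 0.04). Neither overlapped between the groups, while the E protein gene Tcf12 fell (-0.15 ± 0.03) and Tcf3 was called at 0.09 ± 0.03, a call lost in several alternatives (edgeR adjusted p from 0.003 to 0.38). E proteins bind E-boxes, and the 250 bases before the start of Cd5 are shown because they hold 2 of the type CAGGTG. They lie at chr19:10738975-10739224 on the minus strand of GRCm38.p6, from RefSeq, and the capitals mark the matches, the first on the opposite strand.
Cd5: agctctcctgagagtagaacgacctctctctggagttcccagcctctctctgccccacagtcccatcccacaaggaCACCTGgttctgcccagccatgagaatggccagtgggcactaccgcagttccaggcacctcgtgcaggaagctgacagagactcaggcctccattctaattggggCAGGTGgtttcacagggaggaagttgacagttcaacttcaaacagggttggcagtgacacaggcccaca
This E-box lay on either strand in 15.7% of all windows, 17.8% of those from genes at least 2-fold higher and 17.6% of those from genes at least 2-fold lower, so the windows of the large changes stood close to the rest. No count was tested, and a match of letters does not show binding.

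Regulators of helper and effector fates were called higher in 14 and lower in 4 of 27 (9 and 1 in every alternative). Eomes, a T-box factor of memory cells, rose from 1.06 ± 0.288 to 5.65 ± 0.791 CPM (2.41 ± 0.13), while its relative Tbx21, which encodes T-bet, was at 0.585 and 0.648 CPM and did not pass. Bcl6, the factor of follicular helper cells (0.52 ± 0.05), Tox (0.49 ± 0.03), Hopx (1.01 ± 0.11) and Gfi1 (0.80 ± 0.06) rose, and Prdm1, which encodes the Bcl6 antagonist Blimp-1, fell (-0.64 ± 0.07). Helper cytokines were nearly silent, and Il4, Ifng and Il2 averaged at most 0.133 CPM in either group and were not tested. Prf1, the pore protein perforin, was at 42.8, 37, 45.5 and 41.2 CPM in CD5lo and 21.9, 19.8, 20.7 and 21 CPM in CD5hi libraries (-1.0 ± 0.04), and Ctsw, a protease of cytotoxic cells, moved the other way, from 37 ± 2.09 to 72.5 ± 4.04 CPM (0.97 ± 0.03). Tgfb3 (1.81 ± 0.23) and Csf1 (1.23 ± 0.21) rose at levels under 2 CPM.

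Receptors for cytokines were called higher in 14 and lower in 10 of 35 (7 and 3 in every alternative). Il10ra, a receptor chain for interleukin 10, rose from 16.1 ± 0.885 to 32.7 ± 2.07 CPM (1.02 ± 0.05), and Il18r1, a receptor chain for interleukin 18, fell from 106 ± 5.11 to 67 ± 3.42 CPM (-0.66 ± 0.03). Il4ra (0.01 ± 0.03) and Il6ra (-0.02 ± 0.03) did not pass. Of 25 genes of JAK kinases, STAT factors and SOCS inhibitors, 14 were called higher and 5 lower (5 and 3 in every alternative, and 9 higher without replicate 3). Jak3, the kinase bound to the common gamma chain, rose from 211 ± 4.53 to 292 ± 13.2 CPM (0.46 ± 0.03). Socs3, an inhibitor of interleukin 6 type signals, was at 252, 203, 216 and 209.7 CPM in CD5lo and 159, 113, 136 and 114 CPM in CD5hi libraries (-0.76 ± 0.03), and Socs5 rose (0.58 ± 0.06). Socs3 was highest in replicate 1 of both groups.

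Receptors coupled to G proteins were called in 76.6% of 47 members, against 32.8% of all genes tested. Of the members 22 were higher and 14 lower (18 and 5 in every alternative), and JAK, STAT and SOCS genes stood as high, at 76%. Prostaglandin receptors that raise cyclic AMP were among the rises. Ptger2, the EP2 receptor, was at 0.783, 1.32, 0.867 and 0.724 CPM in CD5lo and 6.6, 6.9, 6.28 and 7.04 CPM in CD5hi libraries (2.86 ± 0.14), and Ptgir, the prostacyclin receptor, at 3.61, 3.54, 3.21 and 3.72 and 17.6, 18.3, 15.9 and 16.1 CPM (2.27 ± 0.07). Both separated the groups fully. Chemokine receptor genes Ccr8 (1.84 ± 0.18) and Ccr4 (1.21 ± 0.17) rose from about 1 CPM, Cxcr5, the receptor for follicles, rose by 0.45 ± 0.12, and Gpr183, an oxysterol receptor of follicle entry, rose from 68.9 ± 4.58 to 98 ± 7.03 CPM (0.51 ± 0.03). Among enzymes that degrade cyclic nucleotides, Pde3b fell from 253 ± 26.1 to 151 ± 22.6 CPM (-0.75 ± 0.03), and Pde2a rose from 56.2 ± 12.5 to 89 ± 13.9 CPM (0.67 ± 0.03). RGS genes, which shorten G protein signals, were called in 9 of 10 members, 5 higher and 4 lower, against 32.8% of all genes tested. In every alternative that tested them 5 were higher and 2 lower, and 2 were lower without replicate 2 or without replicate 3. Higher calls numbered 4 with counts halved and 3 with at least 1 CPM asked in 4 libraries, fits that tested fewer genes. Rgs10 rose from 97.6 ± 2.51 to 178 ± 7.89 CPM (0.87 ± 0.03), Rgs3 from 67.5 ± 3.08 to 119.6 ± 5.22 CPM (0.83 ± 0.03), and Rgs2 fell (-0.33 ± 0.05).

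Adhesion genes were called higher in 15 and lower in 7 of 33 (10 and 2 in every alternative). The LFA-1 chains rose slightly, Itgal by 0.18 ± 0.03 and Itgb2 by 0.30 ± 0.03, and Cd9, a tetraspanin gene, by 0.38 ± 0.03. Neuropilin genes rose more, Nrp1 from 3.45 ± 0.473 to 7.52 ± 0.276 CPM (1.13 ± 0.10) and Nrp2 from 0.658 ± 0.0778 to 2.76 ± 0.268 CPM (2.07 ± 0.18), and Itga4 (0.02 ± 0.03) did not pass. In the Ly6 family, Ly6c1 was at 201, 208, 201 and 178 CPM in CD5lo and 44.7, 52.6, 52.5 and 42 CPM in CD5hi libraries (-2.04 ± 0.03), with the caution that Ly6c2 is a near-identical copy. Ly6a, the stem cell antigen Sca-1, fell from 166 ± 11.3 to 108 ± 11.1 CPM (-0.62 ± 0.03), and Ly6e from 939.7 ± 39.5 to 646 ± 20.6 CPM (-0.54 ± 0.03). Of 8 tested family members 3 fell in every alternative and none rose in every alternative. Actin and membrane genes of memory cells were mixed, with Ahnak rising from 36.1 ± 2.05 to 66.4 ± 4.44 CPM (0.88 ± 0.04), S100a6 rising from 0.301 to 1.22 CPM and Tagln2 falling from 243 ± 11.1 to 160.1 ± 4.67 CPM (-0.60 ± 0.03).

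Interferon-linked genes were called in both directions, and few of the rises held. Of 59, 18 were called higher and 24 lower, but 2 and 11 were so in every alternative. Those that fell included GTPases induced by interferon gamma: Iigp1 was at 90.2, 110.1, 118 and 84.3 CPM in CD5lo and 48.9, 59.5, 57.2 and 41.1 CPM in CD5hi libraries (-0.96 ± 0.03), and Igtp fell from 302 ± 41 to 194 ± 18.7 CPM (-0.64 ± 0.03), Gbp2 by 0.54 and Irgm1 by 0.34 on the log2 scale. The type I interferon targets Ifit1 (0.20 ± 0.04) and Isg15 (0.21 ± 0.06) were called higher with overlapping groups, and both calls were lost without pairing, that of Ifit1 also in the paired fit of all 20 libraries. MHC class I and peptide loading genes had 15 falls and 2 rises called among 23 members (7 and 0 in every alternative), by small steps with a median of -0.13. The peptide transporter gene Tap1 (-0.24 ± 0.03), the immunoproteasome gene Psmb9 (-0.32 ± 0.03) and Tapbpl, a peptide editor gene (-0.35 ± 0.03), fell.

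**Figure D4:**
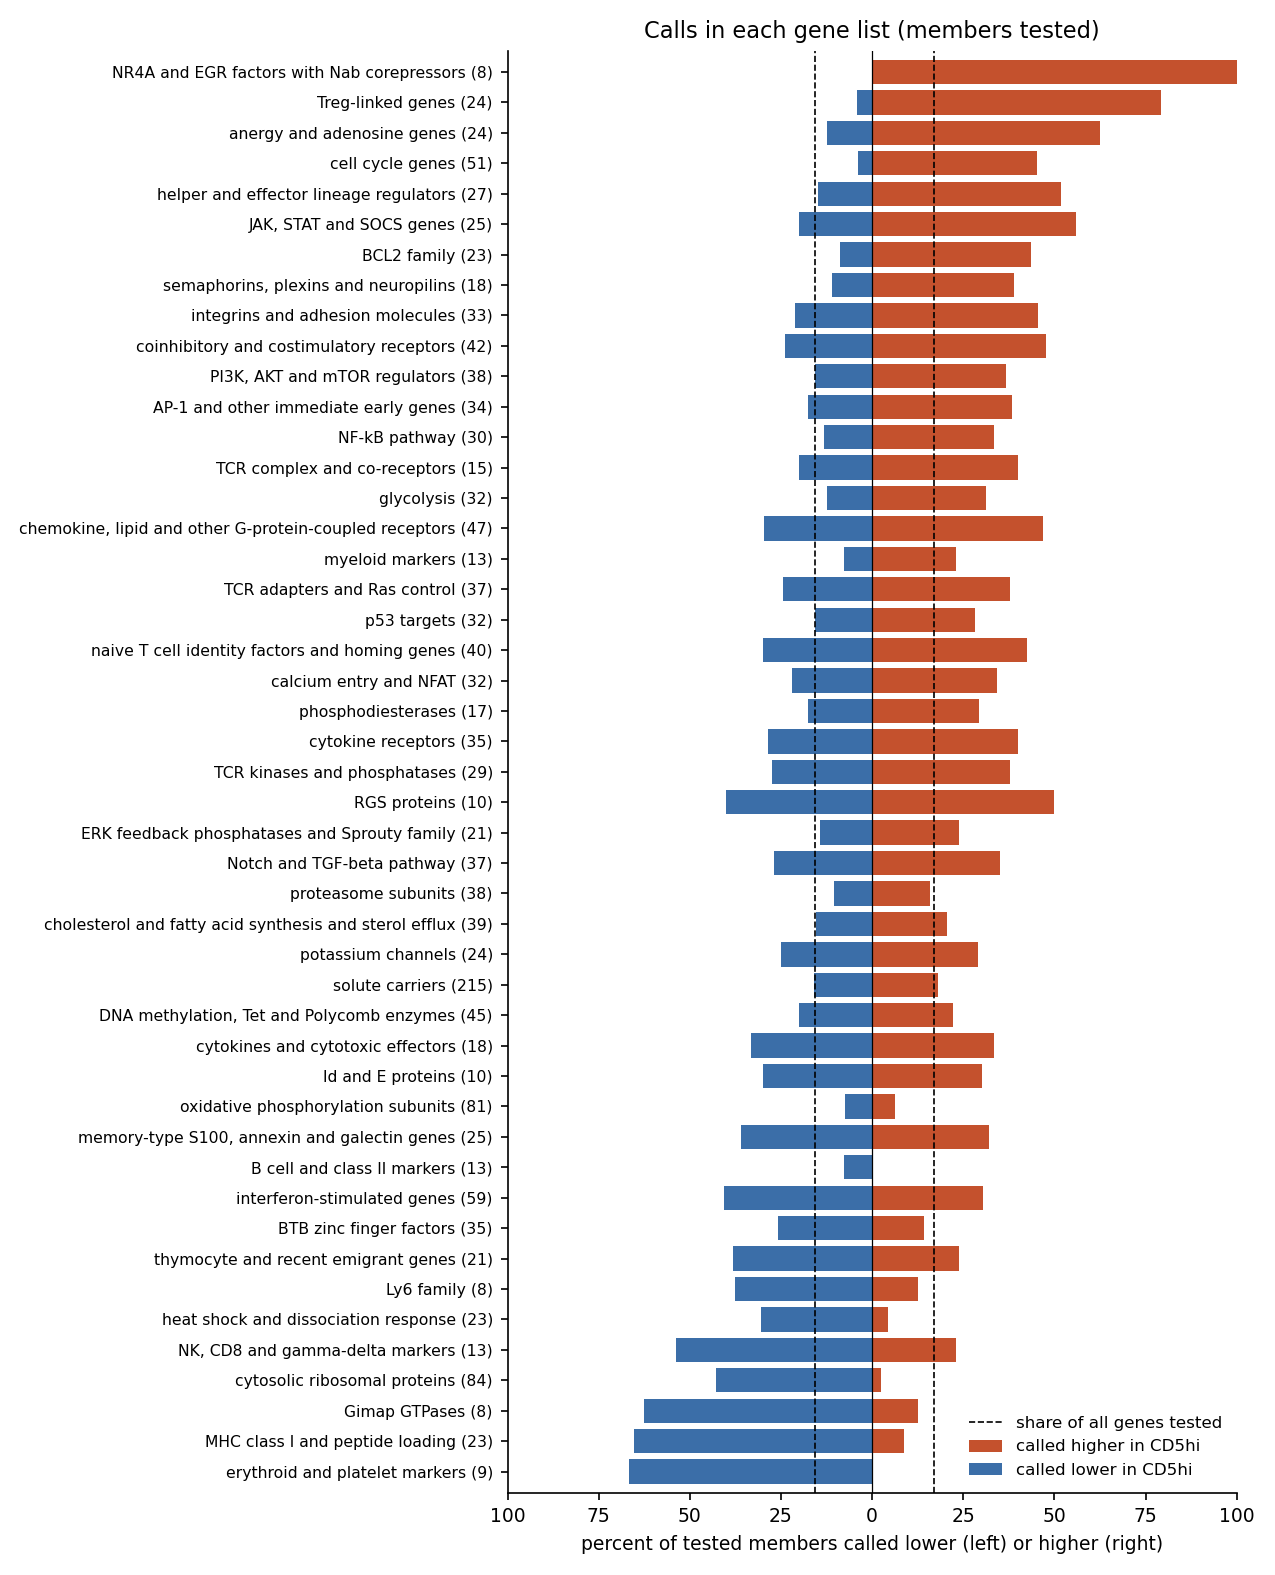
Bars give, for gene lists with at least 8 tested members, the percent of members called lower (left) and higher (right) in CD5hi cells, with the number tested in parentheses, and dashed lines mark the 15.7% and 17.1% of all genes tested. NR4A and EGR, Treg-linked and anergy lists stand at the top, and MHC class I, Gimap, ribosomal protein and erythroid lists stand at the bottom.

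Survival genes of the BCL2 family rose on both sides of the balance. Of 23 members 10 were called higher and 2 lower (8 and 1 in every alternative). Bcl2, which protects naive cells, was at 132, 179.7, 210.2 and 169.5 CPM in CD5lo and 242, 274, 307 and 274 CPM in CD5hi libraries (0.68 ± 0.04). Bbc3, which encodes the killer protein Puma, was at 10.4, 15.1, 10.1 and 14.3 and 28.3, 30.6, 26.6 and 40.8 CPM (1.34 ± 0.06), and Bcl2l11, which encodes Bim, rose from 67.1 ± 3.33 to 83.9 ± 3.68 CPM (0.32 ± 0.03). Neither Bcl2 nor Bbc3 overlapped between the groups. Bcl2l1, which encodes the protective Bcl-xL, fell (-0.30 ± 0.06), and Mcl1 (0.01 ± 0.03) did not pass. The p53 list was called higher in 9 and lower in 5 of 32 (4 and 2 in every alternative, and 3 lower without replicate 2, 3 or 4), Trp53 itself (-0.06 ± 0.03) did not pass, and Tnfrsf10b, a death receptor gene, fell (-0.61 ± 0.07).

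Cell cycle genes were called higher in 23 and lower in 2 of 51 members, against 17.1% and 15.7% of all genes tested. In every alternative that tested them, 7 were higher and 1 lower. Top2a, a topoisomerase of dividing cells, was at 8.56, 8.58, 8.45 and 7.94 CPM in CD5lo and 15.4, 19.9, 15.2 and 14 CPM in CD5hi libraries (0.94 ± 0.07), and Mki67, the Ki-67 antigen, rose from 5.43 ± 0.679 to 9.55 ± 1.58 CPM (0.81 ± 0.08). Kif23, a kinesin of cytokinesis, went against them, at 21.9, 18.6, 17 and 22.4 and 5.86, 6.31, 3.57 and 6.18 CPM (-1.88 ± 0.08).

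Metabolic lists differed in their share of calls. Glycolysis genes were called higher in 10 and lower in 4 of 32 (5 and 1 in every alternative), which is 43.8% called. Sterol and fatty acid genes, with 8 higher and 6 lower of 39 (3 and 3 in every alternative), stood at 35.9%. Slc16a3, a lactate exporter gene, rose from 1.29 ± 0.13 to 3.9 ± 0.701 CPM (1.59 ± 0.14), Ldhb, a lactate dehydrogenase gene, fell (-0.34 ± 0.04), and Ldha (0.01 ± 0.03) and Slc2a1, which encodes the glucose transporter GLUT1 (0.04 ± 0.04), did not pass. Acacb, an acetyl-CoA carboxylase gene, fell from 6.0 ± 1.55 to 1.87 ± 0.511 CPM (-1.66 ± 0.13), and Elovl6, a fatty acid elongase gene, rose (0.47 ± 0.04). Oxidative phosphorylation subunits were called in 13.6% of 81 members, below the share over all genes, and none of the 11 calls held in every alternative (without replicate 3, 2 were called lower instead of 6). Solute carriers, at 34% of 215, stood at the background. Ribosomal protein genes were called lower in 36 and higher in 2 of 84, yet with a median of only -0.06 and with no member called in every alternative. Without replicate 3, 16 ribosomal protein genes were called lower.

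Other signalling families held called genes in both directions. Arhgap18, which encodes a GTPase-activating protein, rose from 11.1 ± 0.775 to 20.4 ± 1.31 CPM (0.88 ± 0.06). Potassium channel genes were called higher in 7 and lower in 6 of 24 (4 and 4 in every alternative). Kcna2, a voltage-gated channel gene, was at 6.69, 5.19, 5.1 and 6.34 CPM in CD5lo and 1.33, 0.979, 1.11 and 1.41 CPM in CD5hi libraries (-2.27 ± 0.12), so it fell where Kcnf1 rose, and Kcnj16, an inward rectifier gene, fell from 4.32 ± 0.491 to 1.21 ± 0.216 CPM (-1.84 ± 0.14). In the Notch and TGF-beta pathways, 13 of 37 were called higher and 10 lower (6 and 0 in every alternative). Nrarp, a feedback inhibitor of Notch (0.73 ± 0.11), Lfng, a Notch glycosyltransferase gene (0.31 ± 0.03), Smad3 (0.28 ± 0.03) and Tgfb1 (0.29 ± 0.03) rose. Among chromatin enzymes, Dnmt3a, a de novo DNA methyltransferase gene, rose from 115 ± 5.7 to 151 ± 6.35 CPM (0.39 ± 0.03), and Hdac7, a class IIa histone deacetylase gene, fell from 359.9 ± 7.08 to 229 ± 7.18 CPM (-0.65 ± 0.03), while Dnmt1 (215 and 215 CPM) and Ezh2 (0.06 ± 0.04) did not pass. Regulators of PI3K and mTOR were called higher in 14 and lower in 6 of 38 (4 and 2 in every alternative), with Inpp5d, which encodes the phosphatase SHIP-1, rising (0.19 ± 0.03) and the PI3K subunit gene Pik3r5 falling (-0.40 ± 0.03). In the Gimap family of lymphocyte GTPases, 5 of 8 were called lower (3 without replicate 4, 2 with no replicate block, and none in every alternative) and Gimap5 rose (0.28 ± 0.03).

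Heat shock genes showed what replicate numbers share. Hspa1b, an inducible HSP70 gene, was at 1.53, 2.17, 64.2 and 8.71 CPM in CD5lo and 1.24, 1.68, 39.2 and 4.5 CPM in CD5hi libraries, far higher in replicate 3 of both groups than elsewhere. Dnajb1, its co-chaperone, was at 94, 103, 170.5 and 86.5 and 80.0, 92.6, 134 and 76.3 CPM, again highest in replicate 3. Of 23 tested genes of the heat shock list, 20 were highest in replicate 3 of both groups. Between the gates 7 of them were called lower and 1 higher, and none of these calls held in every alternative. Hspa1b fell by 0.71 on the log2 scale in the paired fit, with overlapping groups and with the call lost without pairing and in the paired fit of all 20 libraries, as was that of Dnajb1. The part of this shared variation in other calls was not tested.

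**Figure D5:**
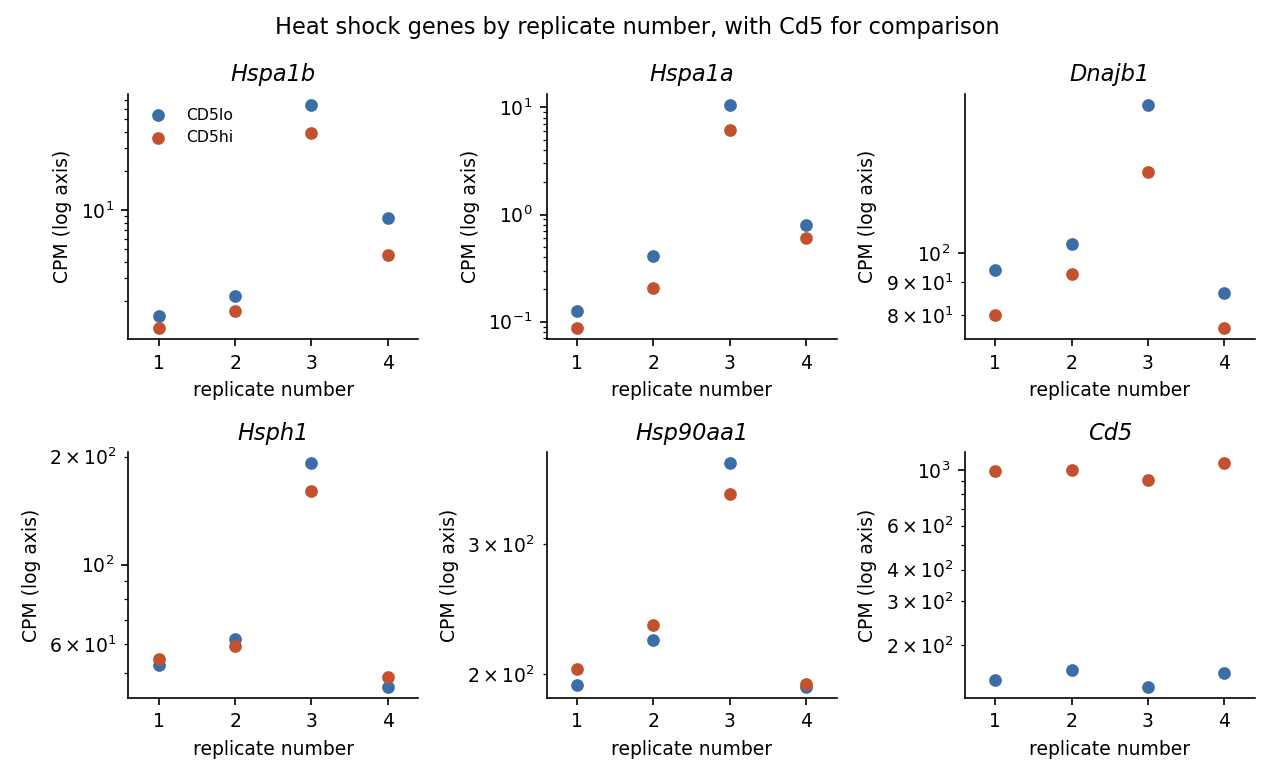
CPM on log axes against replicate number for 5 heat shock genes and Cd5, in CD5lo and CD5hi libraries. The heat shock genes peak in replicate 3 of both groups, for example Hspa1b at 64.2 and 39.2 CPM, while Cd5 separates the groups in every replicate.

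The leading changes were also seen in libraries that the comparison did not use. The rested groups came from the same sort and spent 22 hours in culture medium containing 10 ng/mL of IL-7, a survival cytokine of naive T cells, before lysis. In them all 4 CD5hi libraries lay above all 4 CD5lo libraries for 20 of the 20 largest rises, against 5.28% of all genes tested here. The 20 rises include Cd5, whose separation is set by the gate in both states and is not a finding. For the 20 largest falls, the rested CD5hi libraries lay below the CD5lo libraries in 17, against 5.3% of all genes tested. Both states share the CD5 gate, and the genes were picked for large gaps in fresh cells. Agreement was thus likely and is not independent support.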

How the data were processed

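Read counts per gene symbol were deposited as 1 table, of which the 8 columns of the fresh libraries were tested. All columns matched a sample by title, and 0 were left unmapped. Per the submitters' processing notes, the mm9 build, featureCounts 1.4.5 (Subread), TopHat2 2.0.11 and edgeR were used. Neither annotation nor strandedness of the counting is given in the sources used here, so reads of overlapping antisense genes cannot be separated. Between 63.1 and 65.4% of counts from 1 to 10 were even, so most fragments seem counted once per mate.

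Counts were fitted with edgeR 4.0.16 (estimateDisp, glmQLFit, glmQLFTest) in R 4.3.3 with TMM scaling, the default expression filter and replicate number plus CD5 gate as terms, which leaves 3 residual degrees of freedom. Each SE was taken as the absolute log2 change divided by the root of its F statistic. The numbers come from the titles. Deviations from the group means correlated, over genes, at 0.217 to 0.404 for libraries of the same number and at -0.237 to 0.086 for other combinations. Centring on the group means lowers the other combinations where those of the same number are positive, so the contrast is partly built in. The main fit was to be paired whatever these values. Simulated counts (12435 genes) were drawn from pair means and dispersions of the same paired model, with 66, 67 and 66 genes changed by 1.5-, 2- and 4-fold. On them the fit recovered 89.4% of 1.5-fold, 95.5% of 2-fold and all of the 4-fold changes, with 3.57% of calls false. The model is true there by design and few genes change, so this rate does not speak for the real calls.

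Alternatives were fits without pairing or with all 20 libraries, RLE factors, library totals, DESeq2 1.42.0, other filters, halved counts and leaving out each replicate number. Named genes are the sort markers, the 20 largest rises and falls without overlap and with at least 10 CPM, the 12 largest changes of at least 100 CPM in both groups, genes near absent in 1 group, and preset or leading members of each list. The members and the 49 gene lists were chosen with earlier results of these data known. Lists are described by counts and medians without a test, and some genes and a list are not reported here. Promoter windows come from a RefSeq table of GRCm38.p6, which held 8750 of the 12527 tested genes by symbol.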

Additional observations from a re-analysis of the deposited data

Results flagged for a closer look

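The 209 genes described were checked for a library far from the other 3 of its group (Dixon's test at its 95% critical value), which chance alone gives in about 1 in 20 groups. Of 416 groups, 32 were flagged, 15 of them by replicate 3, 8 by replicate 1, 5 by replicate 2 and 4 by replicate 4. No explanation was tested.

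Replicate 3 stood apart in both groups for Hspa1b, at 64.2 CPM in CD5lo and 39.2 CPM in CD5hi cells, and for Pdk1, at 546 and 286 CPM. Among CD5lo libraries it was also highest for Itgb2 (566 CPM), Lyst (295 CPM), Pde3b (292 CPM), Tnfrsf10b (11.9 CPM), Zbtb7b (339 CPM) and Il2 (0.0197 CPM, against 0 in the others). Among CD5hi libraries replicate 3 was highest for Csk (454 CPM), Dnmt1 (223 CPM) and Trp53 (175.5 CPM) and lowest for Cd6 (924 CPM) and Kif23 (3.57 CPM).

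Replicate 1 was highest in CD5lo cells for Hba-a1 and Hba-a2 (37.6 CPM in both, whose counts are equal), Ly6e (998 CPM) and Thy1 (1005 CPM), and lowest for Itpr1 (117 CPM). In CD5hi cells it was highest for Cd3e (368 CPM) and Il18r1 (72.1 CPM) and lowest for Igf2r (268 CPM). Replicate 2 was highest for Rgs3 (72.05 CPM) and lowest for Itgal (534 CPM) in CD5lo cells, and in CD5hi cells highest for Ccr4 (2.82 CPM) and Dapl1 (105 CPM) and lowest for Malt1 (214 CPM). Replicate 4 was highest in CD5lo cells for Il18r1 (113.5 CPM) and Ncr1 (0.0196 CPM, against 0 in the others), and in CD5hi cells highest for Kcnf1 (4.74 CPM) and lowest for Mki67 (7.19 CPM). For Cd6, Pdk1, Thy1, Kif23, Lyst and Mki67 the groups did not overlap even so.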

How the results depend on the processing

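The count of calls depended mainly on the pairing and on which libraries shared the estimate of spread. With no replicate block, 2183 genes were called, 1250 higher and 933 lower, all of them among the 4103 paired calls and with the same sign. A fit of all 20 libraries with no replicate block called 1524 genes (913 higher, 611 lower), and one with the replicate block within states called 2396 (1351 higher, 1045 lower). The 2-fold calls were steadier: 366, 334 and 370 of the 401 kept their call and sign in these fits. With counts halved, 11892 genes were tested and 324 of the 401 kept their call and sign. That fit gave 316 changes of at least 2-fold, 233 higher and 83 lower. Asking for at least 1 CPM in 4 libraries left 229 changes of at least 2-fold, 166 higher and 63 lower, since fewer genes were tested. Leaving out a replicate number, which in the paired fit drops both libraries, gave 3239 (without replicate 3) to 3931 calls and 388 to 408 changes of at least 2-fold, and DESeq2 gave 3302 calls. Scaling by RLE factors or library totals moved the median of all genes by at most 0.011, and the share of calls that were higher from 52.1% to 51% and 57.7%. Of the 4103 calls, 1417 were kept in every alternative that tested the gene (847 higher, 570 lower, 321 of at least 2-fold). Of 402 genes taken by the naming rule and tested, 339 were called, 216 were kept in every alternative and none changed sign. Among lists, 36 ribosomal protein genes were called lower in the paired fit, 11 with no replicate block, 0 in either edgeR fit of all 20 libraries and 16 without replicate 3. Interferon-stimulated genes called higher numbered 18 in the paired fit, 6 with no replicate block, and 2 and 8 in the fits of all 20 libraries without and with the block. Of genes under 1 CPM 12.7% were called, against 47.9% of those over 100 CPM, and the part of depth in this was not tested.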
